A study of Homo sapiens with 64 samples.

Results

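This section sets 2 treatments of one cell line against each other in the first hours: cells given indacaterol and GSK256066 together against cells given indacaterol alone. Its members are the arrays labelled with both drugs at 1 h and at 2 h (8 arrays) and those labelled with indacaterol at the same times (8 arrays), 16 of the 64 arrays of the series, and each time was compared within itself. The cells were BEAS-2B, an immortalised human airway epithelial line, kept in serum-free keratinocyte medium and dosed once confluent. Indacaterol, a long-acting agonist of the beta2-adrenoceptor, was given at 10 nM and GSK256066 (GSK in the labels), an inhibitor of phosphodiesterase 4 (PDE4), at 10 nM in both the combination and the GSK groups. The remaining groups used here are vehicle and GSK alone at 1 and 2 h, and the same pair of treatments with indacaterol at 6 and 18 h, with 4 replicates per group. All groups share the line and the medium, and no group had indacaterol at another dose.

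The beta2-adrenoceptor couples to adenylyl cyclase, which makes cyclic AMP (cAMP). cAMP activates protein kinase A, which phosphorylates the transcription factor CREB, and CREB binds the cAMP response element in the promoters of early genes such as the NR4A nuclear receptors. PDE4 enzymes break cAMP down, so an inhibitor of PDE4 can act only on the cAMP that the cyclase has made, and in airway disease inhibitors of PDE4 and beta2-agonists are both used. The comparison asks what the PDE4 inhibitor adds to indacaterol at 1 and 2 h, when many of the early genes stood far above vehicle.

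Signal is the deposited probe-set intensity, a linear value. Differences are on the log2(signal + 16) scale, where 1 unit is a doubling of signal + 16, which understates the change of dim genes. A gene was called at an adjusted p under 0.05 in limma, with Benjamini-Hochberg adjustment over 19775 genes. Whether replicates came from separate cultures is not stated in the labels, so p-values here measure only the spread between these samples, which may be technical, and 4 arrays per group limit the precision. In a whole culture, fewer cells that express a gene and less RNA per cell cannot be told apart.

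Median signal ran from 113.8 to 123.7 over the 16 arrays. The replicate 3 arrays stood apart in every group of the series: their highest signal lay between 265824 and 1081710, against 16840 to 18914 in the other replicates. Of the epithelial markers, KRT8 and KRT18 were bright, with median signals of 4977 and 8066 over the 16 arrays, while EPCAM had a median of 91.7 (46.0 to 249) and CDH1 one of 277 (187 to 1248). The basal keratins KRT14 and KRT5 stood far higher on the replicate 3 arrays. KRT14 ran from 265824 to 291674 on the 4 of them among the 16 and from 17.6 to 34.4 on the other 12. KRT5 ran from 30128 to 31139 and from 115 to 258. Summed over 8 epithelial markers, signal ran from 13119 to 341242 with indacaterol and from 13311 to 349936 with both drugs, so this difference lay between replicates within each arm. Of the fibroblast markers the collagen COL1A1 was the brightest, with a median of 8224, followed by FBLN1 (2796), PDGFRB (1808) and THY1 (1504). The other fibroblast markers ran from 78.4 (PDGFRA) to 187 (POSTN). Of the leukocyte markers LYZ had 377, and the others ran from 27.2 (NKG7) to 93.0 (CD14), with PTPRC at 28.0. Summed over 10 fibroblast markers, signal ran from 13442 to 16215 with indacaterol and from 13277 to 17335 with both drugs. The sums over 9 leukocyte markers ran from 684 to 1045 and from 708 to 1040, so the ranges of the 2 arms overlapped for these markers too. In a culture of one line these sums describe the signal of the markers and no other cells.

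The promoters of genes that the results turn on are shown because CREB binds the letters TGACG. In each window of 300 bases (250 before and 50 after the start of the gene, from RefSeq, build GRCh38.p14, 5' to 3' on the gene's strand) the letters TGACG and their reverse complement CGTCA are in capitals. NR4A3 lies at chr9:99821635-99821934 (plus strand), IL6 at chr7:22726950-22727249 (plus strand), LINC00473 at chr6:165987990-165988289 (minus strand) and SIK1 at chr21:43427082-43427381 (minus strand).
NR4A3: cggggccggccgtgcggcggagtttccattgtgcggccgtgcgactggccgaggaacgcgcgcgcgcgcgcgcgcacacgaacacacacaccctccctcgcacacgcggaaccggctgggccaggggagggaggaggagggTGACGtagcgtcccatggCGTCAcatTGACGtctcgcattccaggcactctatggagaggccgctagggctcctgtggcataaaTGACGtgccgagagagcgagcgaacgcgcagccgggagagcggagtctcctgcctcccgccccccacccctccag
SIK1: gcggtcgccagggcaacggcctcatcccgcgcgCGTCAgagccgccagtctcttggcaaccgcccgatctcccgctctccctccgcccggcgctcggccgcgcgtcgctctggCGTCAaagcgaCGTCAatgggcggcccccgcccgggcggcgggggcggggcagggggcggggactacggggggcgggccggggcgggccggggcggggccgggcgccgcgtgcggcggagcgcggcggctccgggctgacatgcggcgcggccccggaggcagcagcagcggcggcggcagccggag
LINC00473: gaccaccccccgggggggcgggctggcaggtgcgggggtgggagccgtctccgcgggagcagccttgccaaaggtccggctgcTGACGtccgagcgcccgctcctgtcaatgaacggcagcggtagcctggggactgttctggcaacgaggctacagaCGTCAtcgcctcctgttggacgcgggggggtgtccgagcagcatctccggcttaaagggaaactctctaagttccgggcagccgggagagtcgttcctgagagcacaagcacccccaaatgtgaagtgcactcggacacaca
IL6: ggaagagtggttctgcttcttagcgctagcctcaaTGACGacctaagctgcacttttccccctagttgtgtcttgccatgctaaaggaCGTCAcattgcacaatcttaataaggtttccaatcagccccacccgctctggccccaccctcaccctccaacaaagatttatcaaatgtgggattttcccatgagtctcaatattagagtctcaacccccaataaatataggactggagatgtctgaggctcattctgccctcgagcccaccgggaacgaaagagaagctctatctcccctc
NR4A3 held 4 such half-sites, SIK1 3, and LINC00473 and IL6 2 each. Of 35116 promoter windows in the table, 24.6% held at least 1 half-site on either strand and 1.40% held 3 or more. Of the 10 genes that indacaterol raised most at 2 h, 9 had a window and 7 had a half-site in at least 1 of their windows, against 28.4% of all genes with a window. This count favours genes with many windows: PDE4D and PRDM1 counted although they also had windows with 0 half-sites. The windows of SGK1 and CRISPLD2, which are not printed, held 0. None of the 9 held the full element TGACGTCA, which 2.25% of all genes held. A match describes the letters only.

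GSK added no called change to indacaterol. With both drugs, 0 of 19775 genes (0%) were called higher or lower than with indacaterol over 1 and 2 h together in limma, and the lowest adjusted p was 0.465. At an unadjusted p under 0.05, 182 genes were higher (0.920%) and 210 lower (1.06%), together 392 genes (1.98%). At 1 h alone and at 2 h alone 0 genes were called, with 250 (1.26%) and 254 (1.28%) at an unadjusted p under 0.05. The change from 1 h to 2 h in the difference itself was called for 0 genes, with 131 (0.662%) at an unadjusted p under 0.05.

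The intervals bound how large an effect could be. The 95% interval of the early difference lay within 1 log2 unit of 0, a doubling or halving, for 19564 genes (98.9%), and within 0.5 units for 18311 (92.6%). The interval reached a median of 0.195 to either side of the estimate, and 0.159 with replicate number as a block. The block gave 0 calls too, with 737 genes (3.73%) at an unadjusted p under 0.05. The median difference over all genes was -0.023, with 35.9% of genes above 0, and under quantile normalization it was -0.0051, with 46.1% above 0.

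**Figure D1:**
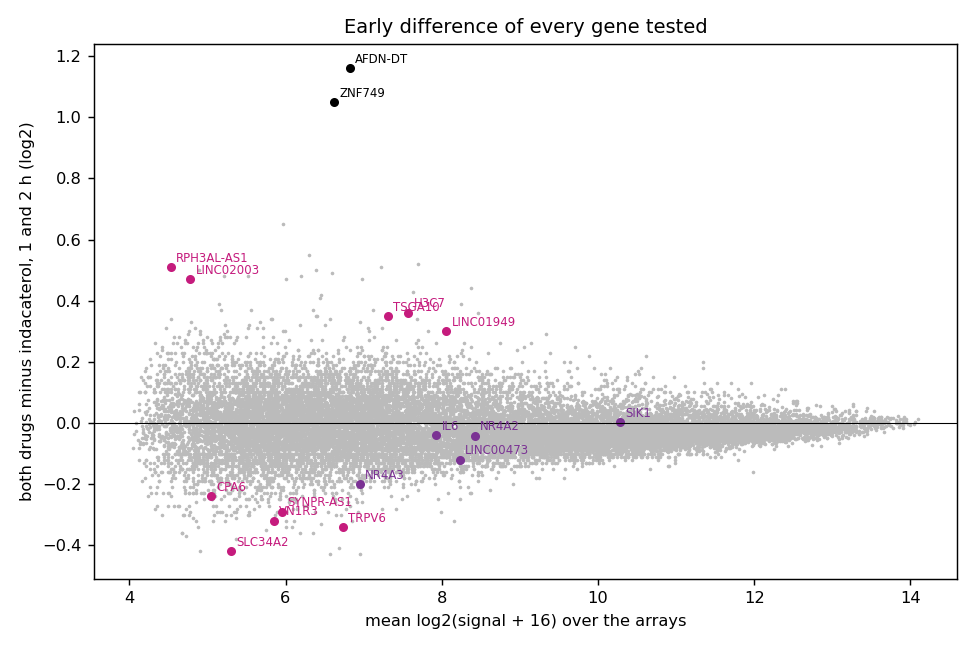
Difference between both drugs and indacaterol over 1 and 2 h (log2, vertical axis) for each of 19775 genes, against its mean log2(signal + 16) over the 64 arrays (horizontal axis). Purple marks 5 genes that indacaterol raised, pink the 10 genes with the greatest moderated t, and black the 2 genes at least 1 unit from 0; no gene was called, and the cloud narrows as the mean rises.

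The NR4A nuclear receptors, which act as early transcription factors downstream of CREB, were already far above vehicle with indacaterol alone. NR4A3 signal at 2 h was 40.4, 34.9, 14.9 and 18.0 in vehicle replicates 1 to 4, 3091, 1394, 3054 and 1145 with indacaterol, and 2861, 1307, 2821 and 1035 with both drugs. Every array with either drug set lay above every vehicle array, the 2 drug arms covered the same range, and in both arms replicates 1 and 3 were the high ones. At 1 h NR4A3 had 1766, 606, 1372 and 345 with indacaterol and 1605, 389, 1303 and 276 with both drugs. NR4A3 rose by 5.58 (SE 0.58) with indacaterol at 2 h (adjusted p = 1.81e-09) and its early difference between both drugs and indacaterol was -0.20 (SE 0.41, 95% interval -1.02 to 0.62, limma adjusted p = 1.000). All 8 differences between same-numbered arrays were below 0, from -0.62 to -0.073. By the rule given below the numbers did not pair the arrays at 1 h, so those at 1 h need not be differences of paired arrays. NR4A3 and other genes below were named for their rise with indacaterol at 2 h, on arrays that the early difference subtracts. That choice would bias the early difference downward for risen genes. The difference at 1 h uses none of those arrays, and for NR4A3 it was -0.28.

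NR4A2 at 1 h had 5098, 1168, 8179 and 742 with indacaterol and 3859, 940, 10900 and 832 with both drugs, against 120, 98.6, 181 and 87.7 with vehicle. The replicates within an arm spanned a wider range than the 2 arms did, and the arms overlapped. Its early difference was -0.041 (SE 0.53) with an interval from -1.10 to 1.02 in the fit without the replicate block. By the rule given below, the numbers paired the arrays over both early times, and replicates 1 and 3 were the high ones in both arms. The fit without the block leaves that spread between replicates in the interval. In that fit a doubling or halving of NR4A2 by GSK could not be told from 0. NR4A1, the third receptor of the family, had 793, 561, 808 and 488 with indacaterol at 2 h and 833, 520, 918 and 407 with both drugs. The NR4A1 difference was -0.055 (SE 0.19), with an interval from -0.43 to 0.32. The other NR4A3 probe sets gave -0.16 and 0.019, the latter on a set that indacaterol moved by only 0.10.

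**Figure D2:**
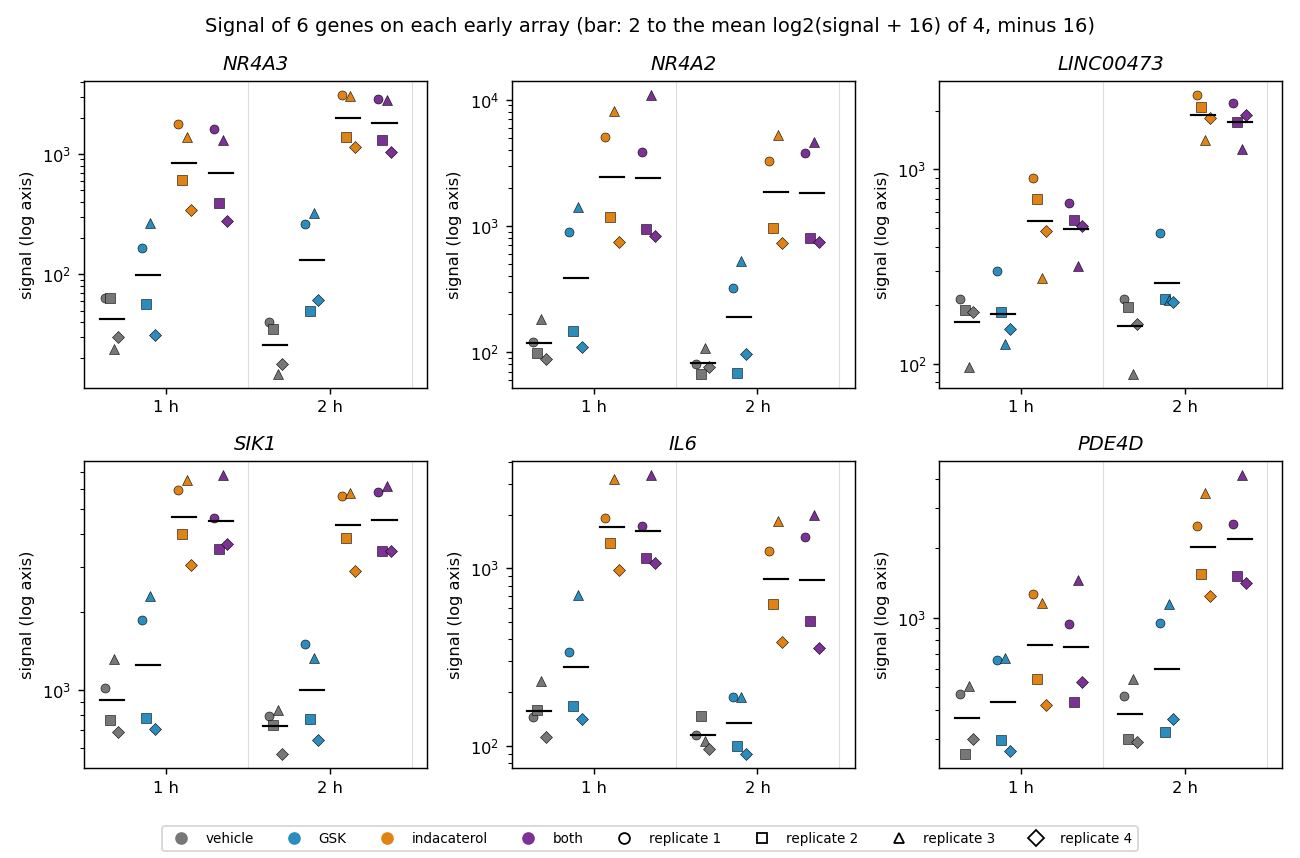
Signal (log axis) of 6 genes on each array at 1 and 2 h in the 4 treatments, with a marker shape per replicate and a bar at the group's mean, taken on the log2(signal + 16) scale. For each gene the indacaterol and both-drug points share a range, and for NR4A3 at 2 h both lie at or above 1035 and vehicle at or below 40.4.

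Genes that restrain receptor and cAMP signals had differences near 0. SIK1, a kinase that acts against CREB coactivators, had 5619, 3888, 5787 and 2884 with indacaterol at 2 h and 5848, 3455, 6143 and 3461 with both drugs, against 796, 735, 839 and 567 with vehicle. Its early difference was 0.0028 (SE 0.27, interval -0.54 to 0.55), where indacaterol alone had raised it by 2.56 (SE 0.38, adjusted p = 1.28e-05) at 2 h. RGS2, which dampens signalling through Gq-coupled receptors, had 7679, 4224, 4658 and 3696 with indacaterol and 7131, 3923, 4707 and 3610 with both, a difference over both times of -0.034 (SE 0.20, interval -0.43 to 0.36). In both genes the 2 drug arms overlapped.

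PDE4D encodes one of the enzymes that GSK inhibits and is itself a CREB target. At 2 h it had 460, 300, 541 and 291 with vehicle, 2486, 1542, 3483 and 1240 with indacaterol and 2552, 1519, 4139 and 1410 with both drugs. Each array of the 2 drug arms lay above each vehicle array, and the arms overlapped. The early PDE4D difference was 0.043 (SE 0.31, interval -0.58 to 0.67), the greatest of the CREB targets. The other 5 PDE4D probe sets gave between -0.018 and 0.011. PDE4B, which rose by 0.99 (SE 0.22, adjusted p = 0.00741) with indacaterol at 2 h, had an early difference of -0.039 (interval -0.36 to 0.28). PDE4A had 0.012 (interval -0.13 to 0.15), and PDE4C was not analysed here.

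Of the secreted factors, the cytokine IL6 had 1913, 1396, 3214 and 981 with indacaterol at 1 h and 1728, 1141, 3357 and 1068 with both drugs, against 144, 159, 230 and 112 with vehicle. Replicate 3 was the highest in both arms and replicate 4 the lowest, and the arms overlapped throughout. The early IL6 difference was -0.039 (SE 0.33, interval -0.70 to 0.63). CRISPLD2, a secreted protein, had risen little at 1 h (0.30, adjusted p = 1.000) and by 2.94 (SE 0.37, adjusted p = 2.58e-07) at 2 h with indacaterol. At 2 h CRISPLD2 had 3118, 1910, 1902 and 1797 with indacaterol and 2914, 1928, 2000 and 1638 with both, and its early difference was -0.052 (interval -0.57 to 0.47).

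LINC00473, a cAMP-inducible long noncoding RNA, had 2417, 2084, 1410 and 1837 with indacaterol at 2 h and 2193, 1749, 1280 and 1910 with both drugs, against 214, 195, 88.6 and 159 with vehicle. Both arms lay far above vehicle and overlapped, and the early difference was -0.12 (SE 0.23, interval -0.59 to 0.34). LINC00473 too was named for its rise at 2 h, so its early difference carries the downward bias given above. At 1 h, on other arrays that the numbers did not pair, its differences between same-numbered arrays were -0.43, -0.36, 0.21 and 0.085. The kinase SGK1 had 6502, 4857, 3810 and 4764 with indacaterol and 5982, 4587, 3682 and 4580 with both at 2 h, lower in all 4 same-numbered pairs by at most 0.12, with an early difference of -0.059 (interval -0.38 to 0.26). PRDM1, a transcriptional repressor, had an early difference of -0.034 (interval -0.43 to 0.36) after a rise of 2.56 (adjusted p = 1.36e-08) with indacaterol at 1 h.

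The genes that indacaterol lowered were not called lower still with GSK. Those below were named for their fall at 2 h, on arrays that the early difference subtracts, which would bias it upward. EGR1, an early transcription factor, had 923, 620, 629 and 349 with indacaterol at 2 h and 792, 536, 538 and 359 with both drugs, against 1932, 1642, 1436 and 1418 with vehicle. The 2 drug arms overlapped and all 8 arrays lay below vehicle. EGR1 had fallen by 1.40 on the log2 scale (SE 0.19, adjusted p = 1.30e-06), and the early difference between the arms was -0.10 (SE 0.13, interval -0.37 to 0.17). TXNIP, an inhibitor of thioredoxin, had 1466, 1647, 995 and 1631 with indacaterol at 2 h and 1494, 1419, 803 and 1256 with both, with an early difference of -0.16 (interval -0.45 to 0.14). The mitotic regulators CCNF and BORA had early differences of -0.0032 (interval -0.22 to 0.22) and -0.082 (interval -0.25 to 0.085), and the transcription factor KLF7 had 0.13 (interval -0.10 to 0.36). The other KLF7 probe sets gave -0.087, -0.057, -0.10 and 0.14.

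Across the CREB targets, 22 of 25 listed genes were measured, and 0 of the 22 were called in the early difference, beside 0% of all genes. None of the 22 had an unadjusted p under 0.05. Their median difference was -0.04, against -0.023 over all genes. Of the 22, 5 were above 0 (1 to 10 of them with any 1 replicate left out), beside 35.9% of all genes. The values ran from -0.20 (NR4A3) to 0.043 (PDE4D). In 19 of the 22 the interval lay within 1 unit of 0, and in 11 within 0.5 units, against 98.9% and 92.6% of all genes. With indacaterol alone at 2 h, against vehicle, 14 of the same 22 had risen (beside 0.986% of all genes), 1 (EGR1) had fallen (beside 0.212%) and the median was 1.23. PER1, BTG2 and AREG were not analysed here.

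**Figure D3:**
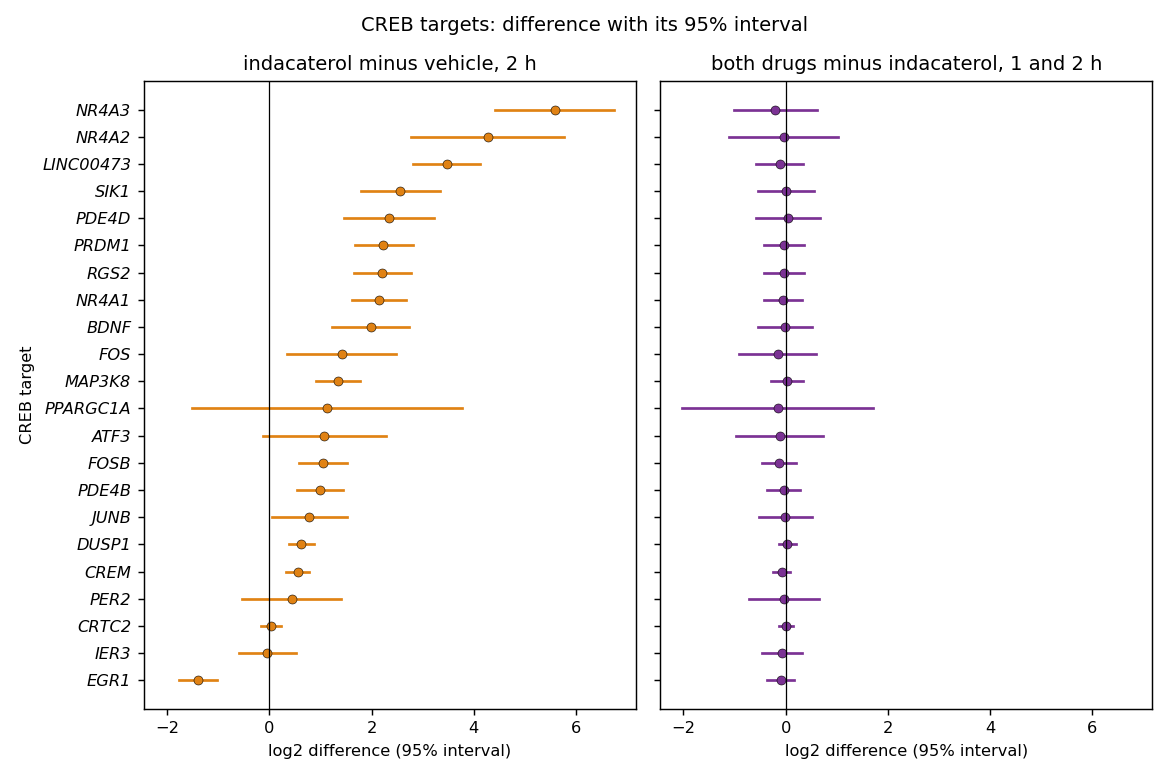
Log2 difference with its 95% interval (horizontal axis, the same in both panels) of 22 CREB targets for indacaterol minus vehicle at 2 h (left) and both drugs minus indacaterol over 1 and 2 h (right); both panels use the indacaterol arrays at 2 h. On the left NR4A3 stands at 5.58, and on the right every point lies between -0.20 and 0.043.

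The other groups of genes held no called member in the early difference either, in either direction. Among 21 measured brakes and feedback genes of the cAMP pathway the values ran from -0.17 (PKIB, an inhibitor of protein kinase A) to 0.25 (PDE3B), with a median of 0.0028. Among 25 components of cAMP signalling they ran from -0.25 (ADCY4, an adenylyl cyclase) to 0.18 (EP300, a coactivator of CREB), with a median of -0.0026. The 29 cytokines and chemokines had a median of -0.05, from CXCL1 (-0.17) to IL1RN (0.18), and the 21 glucocorticoid-inducible genes, a group that beta2-agonists can also raise, a median of -0.029, from TNFAIP3 (-0.078) to GADD45B (0.081). These medians lay within 0.05 of the -0.023 found over all genes.

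Immediate early genes (25 measured), outputs of the ERK kinases (17) and growth and vascular factors (21) had medians of -0.032, -0.036 and -0.026. Their highest members were EGR3 (0.25), SPRED3 (0.067) and PGF (0.16), and 0 members of any of the 3 lists had an unadjusted p under 0.05. For each of the 30 mitotic genes the interval lay within 0.5 units of 0, with values from BORA (-0.082) to KIF23 (0.09). All 17 measured sterol synthesis genes also had intervals within 0.5 units of 0, from MVD (-0.064) to SC5D (0.02). Clock genes (15), genes of the unfolded protein response (20) and interferon-stimulated genes (21) had medians of -0.054, -0.036 and -0.058.

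Genes chosen on one early time were then read at the other, where the arrays do not overlap. Of the genes called with indacaterol against vehicle at 2 h, 195 had risen (0.986%), by a median of 0.75. In both drugs minus indacaterol at 1 h these 195 had a median of -0.043, with 30 above 0 (15.4%), beside -0.02 and 38.7% over all genes, and 0 were called. Their intervals lay within 1 unit of 0 in 192 of 195. Between same-numbered arrays the median of the 195 was -0.20, -0.19, 0.11 and 0.11 for replicates 1 to 4, and that of all genes -0.12, -0.10, 0.056 and 0.055. By the rule given below the numbers did not pair the arrays at 1 h (lowest r 0.0845), so these need not be differences of paired arrays. Replicates 1 and 2 thus lay on one side of 0 and replicates 3 and 4 on the other, for these genes and for the array as a whole.

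The 42 genes that had fallen at 2 h had a median of -0.0016 at 1 h, with 20 above 0. The 37 genes risen at 1 h (0.187%) had a median of -0.023 in the difference at 2 h, beside -0.026 over all genes, and the 5 fallen at 1 h (0.0253%) had -0.036. Among these sets too 0 genes were called.

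GSK without indacaterol can be set beside GSK with it, since the 2 comparisons share no array. For NR4A3 at 2 h, signal with GSK alone was 263, 50.0, 322 and 60.9, against the vehicle values given above of 14.9 to 40.4. NR4A2 at 1 h had 888, 146, 1421 and 110 with GSK alone, against 87.7 to 181 with vehicle. The GSK arrays of replicates 1 and 3 were high and those of replicates 2 and 4 were close to vehicle for NR4A2. Over 1 and 2 h GSK alone gave a difference of 1.40 for NR4A3 (interval 0.58 to 2.23, limma adjusted p = 0.279, and 0.0201 with replicate number as a block), 1.33 for NR4A2 (interval 0.27 to 2.39, adjusted p = 0.474) and 0.67 for NR4A1 (interval 0.29 to 1.05, adjusted p = 0.253). With indacaterol present the same 3 genes had -0.20, -0.041 and -0.055.

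The difference between the 2 effects of GSK was -1.60 for NR4A3 (SE 0.58, interval -2.77 to -0.44), -1.37 for NR4A2 (SE 0.75, interval -2.87 to 0.13) and -0.73 for NR4A1 (SE 0.26, interval -1.26 to -0.19). Each had an adjusted p of 1.000 in the fit without the block. In that fit, of 19775 genes 0 were called for this difference (0%), with 694 (3.51%) at an unadjusted p under 0.05 and a lowest adjusted p of 0.254. With replicate number as a block 0 were called too, with 1061 (5.37%) at an unadjusted p under 0.05. The lowest adjusted p over all genes was then 0.0644 in limma. Of the 22 CREB targets 19 had a lower GSK effect with indacaterol than without. The effect was higher for 3 of them, against 54.9% of all genes. The median of the 22 was -0.18 beside 0.013 over all genes, and 0 were called. Without replicate 3 the NR4A3 difference was -1.06. SIK1 had 0.45 without and 0.0028 with indacaterol, and PDE4D 0.42 and 0.043. These pairs of values did not pass the test of their difference.

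**Figure D4:**
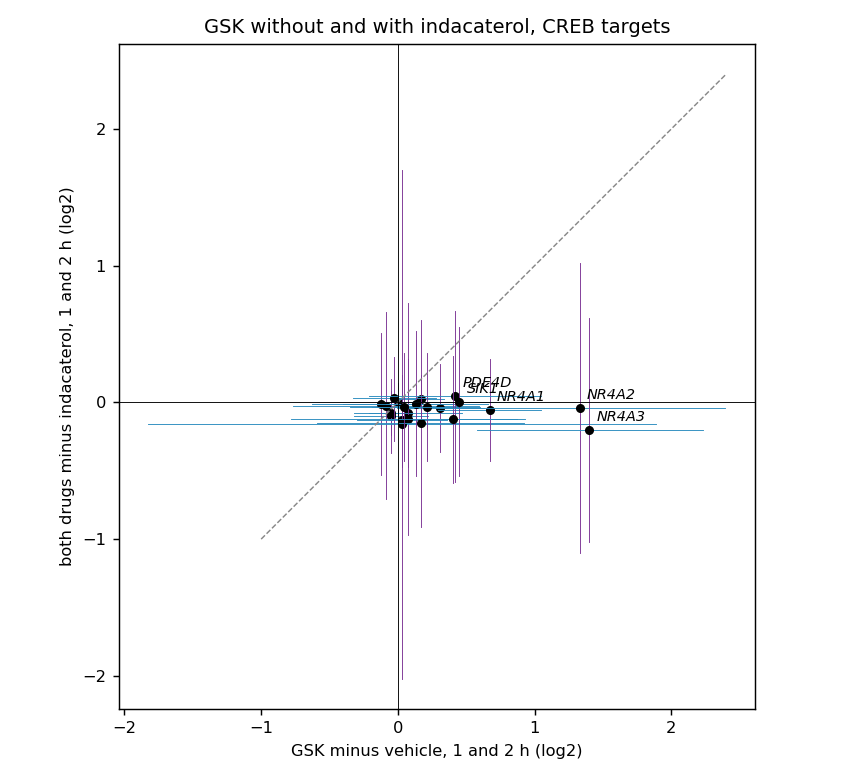
Effect of GSK without indacaterol (horizontal axis, GSK minus vehicle) and with it (vertical axis, both drugs minus indacaterol) over 1 and 2 h, as log2 differences with 95% intervals, for 22 CREB targets; the dashed line marks equal effects. NR4A3 and NR4A2 lie at 1.40 and 1.33 on the horizontal axis and at -0.20 and -0.041 on the vertical one.

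The 1 gene called for GSK alone over 1 and 2 h (0.00506% of genes) was RSPO1, a secreted activator of Wnt signalling, which was dim, and 1728 genes (8.74%) had an unadjusted p under 0.05. RSPO1 had 56.0, 50.9, 35.4 and 40.1 with vehicle at 1 h and 30.7, 26.8, 29.6 and 19.8 with GSK, without overlap. At 2 h it had 30.1, 25.4, 28.8 and 42.2 with vehicle and 32.3, 14.4, 12.2 and 20.7 with GSK, which overlapped. RSPO1 fell by 0.47 on the log2 scale (SE 0.088, limma adjusted p = 0.0400), while with indacaterol present GSK gave 0.03 (interval -0.15 to 0.21). The count of calls for GSK alone was 0 without replicate 2, 3 or 4, and 186 without replicate 1.

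The genes nearest to a call in the early comparison were mostly dim. The 5 with the greatest moderated t on the higher side were LINC02003 (0.47, limma unadjusted p = 4.61e-05), TSGA10 (0.35), H3C7 (0.36), RPH3AL-AS1 (0.51) and LINC01949 (0.30). LINC02003 had signals from 1.93 to 18.1 with indacaterol and from 12.7 to 22.5 with both drugs, and RPH3AL-AS1 from 0.00746 to 7.25 and from 3.97 to 18.3, far under the median of an array. The 5 on the lower side were TRPV6, a calcium channel of epithelia (-0.34), SLC34A2, a phosphate transporter (-0.42), CPA6 (-0.24), VN1R3 (-0.32) and SYNPR-AS1 (-0.29). TRPV6 had 144, 116, 140 and 99.7 with indacaterol at 2 h and 103, 76.3, 102 and 85.5 with both. At 1 h TRPV6 had 108, 122, 105 and 102 and then 90.4, 76.1, 94.0 and 85.1, without overlap. The other LINC01949 probe sets went the other way, at -0.085, -0.15 and -0.066. Those of TRPV6 and CPA6 gave 0.034 and 0.019. None of these 10 genes was called.

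TSGA10, a gene first described in testis, and H3C7, which encodes a histone H3, could be read again on the arrays of 6 and 18 h. Those arrays gave no part of the early difference by which the genes were chosen, but they share the estimate of spread behind the moderated t, so the late p-values are not fully independent of the choice. Of the 10 genes above, 5 had the same sign at both 6 and 18 h as early, and these 2 alone also had an unadjusted p under 0.05 at both late times. TSGA10 at 1 h had 126, 142, 116 and 122 with indacaterol and 170, 171, 168 and 177 with both drugs, without overlap, and at 2 h 125, 132, 140 and 134 against 131, 182, 157 and 199, with overlap. At 6 h it had 129, 131, 120 and 111 against 173, 217, 172 and 185, a difference of 0.54 (limma unadjusted p = 8.10e-06, adjusted p = 0.160). At 18 h the arms overlapped, with 139, 102, 146 and 98.5 against 174, 173, 159 and 138, and the difference was 0.38 (unadjusted p = 0.00106, adjusted p = 1.000). The difference was thus above 0 at all 4 times and called at none.

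H3C7 had 143, 134, 164 and 148 with indacaterol at 1 h and 198, 207, 199 and 216 with both drugs, and at 18 h 152, 151, 189 and 139 against 207, 207, 211 and 207, without overlap at either time. The arms overlapped at 2 h, with 148, 144, 156 and 186 against 162, 206, 187 and 236, and at 6 h, with 157, 158, 190 and 148 against 188, 244, 216 and 235. The H3C7 differences were 0.40 at 6 h (unadjusted p = 0.00178) and 0.37 at 18 h (unadjusted p = 0.00336), with an adjusted p of 1.000 at 18 h.

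The place of vehicle relative to the 2 arms changed with time. For TSGA10 vehicle ran from 118 to 156 at 1 h, from 138 to 147 at 6 h and from 128 to 140 at 18 h, and for H3C7 from 126 to 203, from 172 to 195 and from 152 to 195. At 2 h vehicle reached the level of both drugs, with 165, 189, 182 and 125 for TSGA10 and 191, 203, 283 and 169 for H3C7. The other 3 probe sets of TSGA10 gave early differences of 0.048, 0.0072 and -0.078, and H3C7 had 1 probe set.

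**Figure D5:**
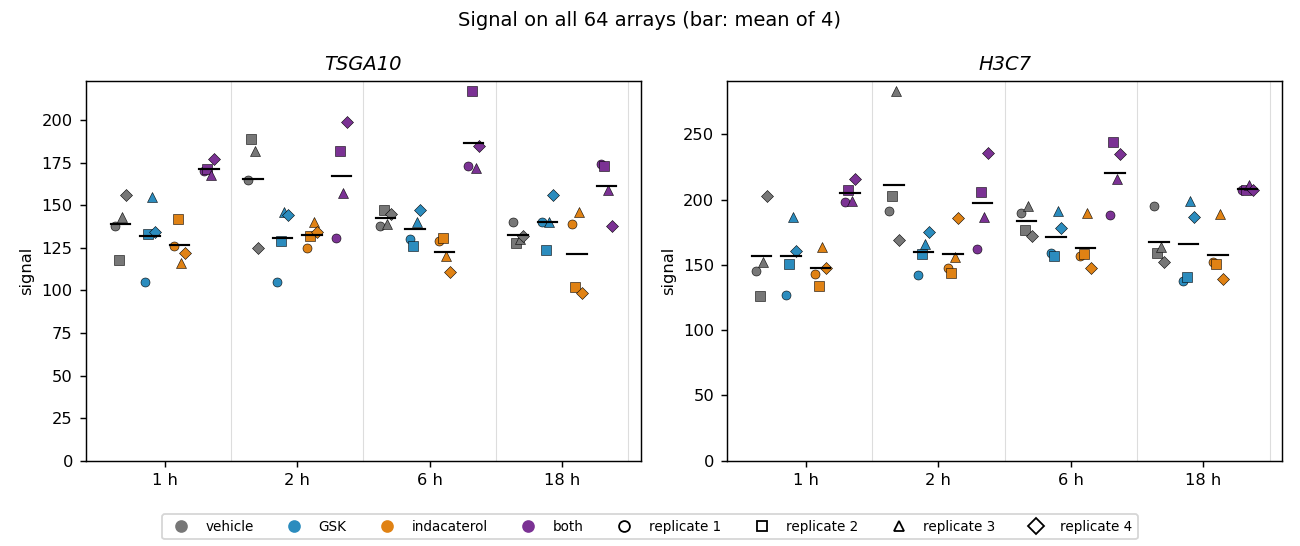
Signal of TSGA10 (left) and H3C7 (right) on all 64 arrays, by time and treatment, with a marker shape per replicate and a bar at the mean of 4. With both drugs TSGA10 at 6 h lies at 172 to 217, above the 111 to 131 of indacaterol, and H3C7 at 18 h lies at 207 to 211, above 139 to 189.

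Groups that did not overlap at a single time were few. At 1 h 158 genes (0.799%) had all 4 arrays of one arm above all 4 of the other, 90 with both drugs higher (0.455%) and 68 lower (0.344%), and at 2 h 232 genes (1.17%), 76 higher (0.384%) and 156 lower (0.789%). At both times VN1R10P and CCDC13-AS2 were higher (0.0101%) and BCL2L15 lower (0.00506%), and 0 genes were on opposite sides. These 3 genes, singled out after their values were seen, had early differences of 0.30, 0.30 and -0.17, and all were dim: BCL2L15 ran from 58.0 to 76.1 with indacaterol and from 49.2 to 62.0 with both drugs. The other BCL2L15 probe sets gave early differences of -0.017 and 0.074.

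The estimate was at least 1 unit from 0 for AFDN-DT, a noncoding transcript (1.16, SE 0.34), and ZNF749, a zinc finger gene (1.05, SE 0.38), also singled out after their values were seen. AFDN-DT at 2 h had 29.1, 30.6, 19.5 and 45.8 with indacaterol and 124, 161, 152 and 175 with both drugs, without overlap, while vehicle had 220, 62.8, 54.4 and 79.0. At 1 h its arms overlapped, with 155, 75.2, 197 and 43.9 against 106, 187, 213 and 111. At 6 and 18 h the AFDN-DT differences were 0.054 and 0.20. ZNF749 overlapped at both early times, and both genes had an adjusted p of 1.000.

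Whether the early hours differed from the late ones was tested directly: the early difference minus that of 6 and 18 h was called for 0 of 19775 genes (0%), with 194 (0.981%) at an unadjusted p under 0.05. At 6 h and at 18 h by themselves 0 genes were called, with 346 (1.75%) and 306 (1.55%) at an unadjusted p under 0.05. NR4A2 at 6 h had 420, 231, 390 and 176 with indacaterol and 1285, 231, 1879 and 220 with both drugs, and at 18 h 175, 117, 141 and 93.3 against 179, 120, 448 and 115. Replicates 1 and 3 were higher with both drugs at 6 h, replicate 3 at 18 h, and the other arrays of NR4A2 were close. SIK1 at 18 h had 740, 436, 871 and 501 against 770, 521, 1859 and 488, again with replicate 3 apart. NR4A3 at 18 h was dim, with 50.7, 0.757, 0.0507 and 9.27 against 78.4, 14.6, 53.4 and 30.3.

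The differences between both drugs and indacaterol were thus 0.39 at 6 h and 1.09 at 18 h for NR4A3 (interval at 18 h -0.073 to 2.25), and 1.02 (interval -0.48 to 2.52) and 0.47 for NR4A2. Early minus late they came to -0.94 for NR4A3 (interval -2.10 to 0.23), -0.79 for NR4A2 (interval -2.29 to 0.71), -0.47 for SIK1 and -0.47 for IL6, each with an adjusted p of 1.000. Without replicate 3 the last 3 were -0.46, -0.22 and -0.20. Of the 22 CREB targets, 21 had a lower value early than late. EGR1 was the exception at 0.12, while 33.5% of all genes were higher early. The median of the 22 was -0.21 beside -0.027 over all genes. Without replicate 3, 20 of the 22 were lower early, with a median of -0.12 beside -0.033. None of the 22 was called for this difference, with all replicates or with any 1 left out.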

How the data were processed

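The authors deposited linear intensities, one per probe set, and per the submitters' processing notes used PLIER and Transcriptome Analysis Console 4. Settings are not given in the sources used here. Each of 19775 genes was represented by its probe set with the highest mean; sets with no or several symbols were left out. One limma model (version 3.58.1, R 4.3.3) with a mean for each of 16 groups was fitted to log2(value + 16) on all 64 arrays. Tests were two-sided, with Benjamini-Hochberg adjustment over all genes, and the early contrast was the mean of those at 1 and 2 h. Intervals, SE and p-values of single genes are from this model, without a replicate block, unless another setting is named. The analysis was tested on simulated data with independent noise and no replicate effect. That does not cover the spread between replicates seen here.

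Replicate numbers, whose meaning the labels do not give, were taken to pair arrays where the deviations of all 4 same-numbered pairs correlated above 0.1. This held over both early times (lowest r 0.4077), at 2 h (0.4297) and for GSK against vehicle (0.305), but not at 1 h (0.0845). Alternatives were the number as a block, pseudocounts of 1 and 64, quantile normalization, dim genes left out, every probe set, trended robust moderation, the 16 arrays alone and each replicate left out; the 16 arrays with the block were added after seeing the data.

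Genes named were the 5 with the greatest t per direction where fewer than 5 were called, the genes called in the other contrasts or with the block, the 10 greatest rises and 5 greatest falls with indacaterol at 2 h, and list members. The members and lists were chosen with earlier results of these data known. Genes named for a rise or fall at 2 h were chosen on indacaterol arrays that the early contrast also uses. This would bias the early difference downward for risen genes and upward for fallen ones.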

Additional observations from a re-analysis of the deposited data

Results flagged for a closer look

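Among 140 groups of 4 arrays checked for 35 genes, 5 held an array far from the other 3 for its gene. Chance would flag about 1 group in 20. CRISPLD2 with indacaterol at 2 h had 3118 in replicate 1 against 1797 to 1910 in the others. VN1R3 with both drugs at 2 h had 41.7 in replicate 2 against 31.0 to 32.1. With indacaterol at 1 h, BCL2L15 had 76.1 in replicate 3 against 58.0 to 59.5, CCDC13-AS2 had 5.33 in replicate 4 against 14.3 to 16.4, and VN1R10P had 24.7 in replicate 4 against 44.8 to 48.6.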

How the results depend on the processing

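The count of 0 called genes in both drugs against indacaterol, over both early times, at 1 h and at 2 h, held under each alternative run, with each replicate and each of the 16 single arrays left out. With the replicate block it was 0 as well, and no call of this comparison changed. Its lowest adjusted p ran from 0.0830 (without the indacaterol replicate 3 array at 1 h) to 1.000. The difference between GSK with and without indacaterol had 1 call under quantile normalization (TSGA10, adjusted p = 0.0306) and 1 without replicate 1 (MEFV, 0.0190), and 0 to 1 over the replicates left out. GSK against vehicle had 0 calls with a pseudocount of 64, with dim genes left out or with every probe set, 2 with the replicate block (RSPO1 and NR4A3), 2 with trended robust moderation (RSPO1 and NPM1), and 0 to 186 over the replicates left out. The set fallen at 1 h, of 5 genes, had a median at 2 h of 0.11 with every probe set and of -0.023 to 0.068 without replicate 4 or 2; no gene fell without replicate 1 or 3, so it had no value. The causes were not tested. Of 713 values of 57 named genes under alternatives, 687 moved by less than 1 SE, and 37 uncalled values in 21 genes changed sign. The array signal limits dim genes: values near or under 16 carry little of the change. The NR4A2 interval that leaves room for a doubling is from the fit without the replicate block, which keeps the spread between replicates in it.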
